A study of Mus musculus with 16 samples.

Results

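Loss of IRE1 and XBP1 together was examined in conventional type 1 dendritic cells (cDC1s) by setting the small RNA libraries of compound-deficient mice against those of wild-type mice of the same line. The comparison took the 4 libraries labelled as Xbp1-Ire1 KO and the 4 wild-type libraries whose descriptions carry the name of that line, 8 of the 16 libraries of the series. The other 8, 4 Xbp1-deficient and 4 wild-type libraries of the Xbp1 line, served to show where the compound line differed. All samples came from spleen, were labelled as strain C57BL6, and were sorted as cDC1s in lots of 5000 to 50000 cells. The labels give the compound line as deficient in Ire1a and Xbp1. Not given in the labels are the alleles, any Cre driver, the age and sex of the mice and the number of mice behind a sample. Whether replicates were separate mice is not stated either, so p-values measure only the spread between these libraries, which may be technical.

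IRE1 is a sensor of the endoplasmic reticulum membrane that responds to unfolded proteins, and its cytosolic ribonuclease domain splices the mRNA of XBP1, a transcription factor that raises folding and secretory capacity. The same ribonuclease can cleave other RNAs, a process called regulated IRE1-dependent decay, and precursors of some microRNAs have been reported among its substrates. In cDC1s, which are specialised in presenting antigen from other cells to CD8+ T cells, loss of XBP1 alone is known to leave an overactive IRE1 ribonuclease, whereas compound loss targets the ribonuclease as well. MicroRNAs are short RNAs cut from hairpin precursors by Drosha and Dicer, and they lower the translation and stability of messenger RNAs that pair with their seed.

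The counts name each mature microRNA by its miRBase identifier only, and none of the 853 identifiers has a name in the files or the reference tables, so microRNAs are given here by identifier, at most 2 per direction. Their families, sequences and functions are therefore not described, and lists of microRNAs known by name (reported IRE1 substrates, families, markers of other blood cells) could not be read. The labelled cell type was not checked against marker microRNAs for the same reason, and the targeted messenger RNAs are not among mature microRNAs.

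Total microRNA counts ran from 332923 to 882108 in the wild-type libraries and from 175165 to 978134 in the compound-deficient ones. The ranges of depth overlapped, and the compound-deficient one was the wider at both ends. Between 319 and 451 microRNAs had at least 1 count in the wild type and between 343 and 403 in compound-deficient cells. Compound-deficient replicate 4 was the shallowest library, and wild-type replicate 2 had the most microRNAs detected and the largest TMM scaling factor, 1.17 against 1.02 to 1.05 in the other wild-type libraries of the line. Levels rank-correlated between 0.908 and 0.960 (Spearman's rho over 255 microRNAs, which are not independent) among libraries of a group.

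In compound-deficient cDC1s, 15 of 255 microRNAs tested passed the threshold of an adjusted p under 0.05, which is 5.88%. Of these, 9 rose (3.53%) and 6 fell (2.35%). The changes were moderate: those that rose did so by 1.41-fold to 2.16-fold, and those that fell did so by 1.54-fold to 3.55-fold. The leading microRNAs were MIMAT0000539 and MIMAT0004324 among those that rose, and MIMAT0000531 and MIMAT0000165 among those that fell, by smallest p in edgeR's quasi-likelihood test. Over all 255, the log2 fold changes were spread about a median of 0.04, with 134 above 0 and 121 below.

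**Figure D1:**
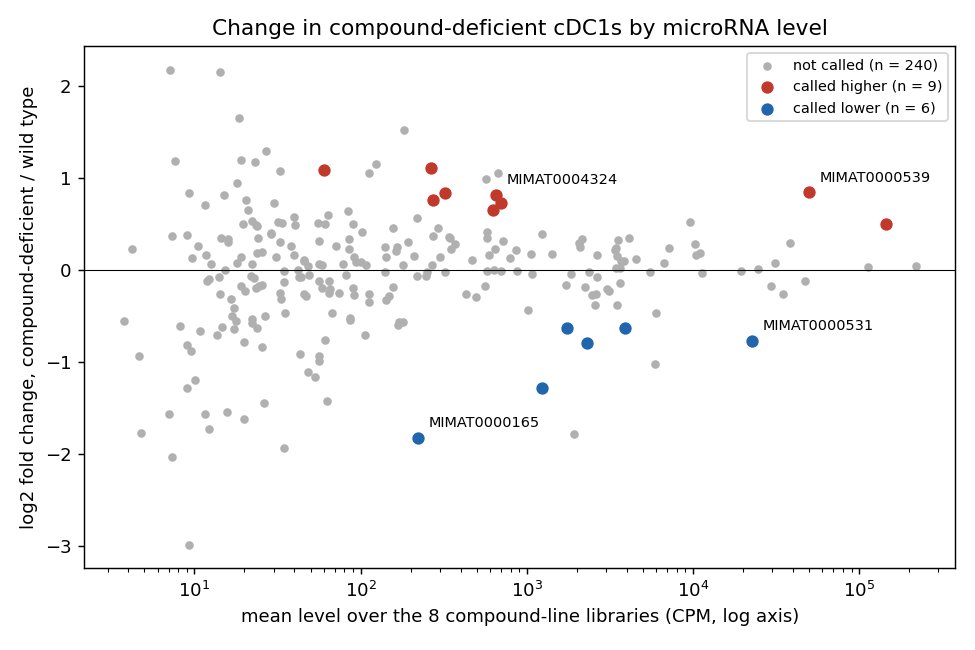
Each point is 1 of the 255 microRNAs tested, with its mean level over the 8 compound-line libraries in CPM (log axis) on the x axis and the log2 ratio of compound-deficient to wild-type level on the y axis. The 9 red points (called higher) and 6 blue points (called lower) lie at 59.95 CPM or above, while the widest scatter of uncalled grey points lies at low levels.

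MIMAT0000531 gave the smallest p of all. Its level in compound-deficient replicates 1 to 4 was 17514, 17131, 15152 and 17323 CPM (counts scaled to a common TMM-scaled library size). In wild-type replicates 1 to 4 it was 24370, 32513, 30962 and 26853 CPM. Every compound-deficient library lay below every wild-type library, and the compound-deficient values were the closer together. It was an abundant microRNA, the 11th of 255 by mean level, read from 3278 to 28782 counts per library, so counting noise adds little. The log2 fold change was −0.77 (SE 0.11, 95% interval −0.99 to −0.55, n = 4 per group, edgeR adjusted p 0.000178), and it lay between −0.88 and −0.71 with any 1 of the 8 libraries left out.

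MIMAT0000165 had the largest change of the 15 called. It stood at 104.2, 80.6, 104.7 and 95.1 CPM in compound-deficient replicates 1 to 4. The wild-type replicates 1 to 4 gave 615, 274, 221 and 272 CPM. The groups did not overlap, and wild-type replicate 1 stood well above the other wild-type libraries, which lay near each other. This microRNA was read from 18 to 97 counts in the compound-deficient and 92 to 227 in the wild-type libraries, the thinnest basis of the 4 described singly. The log2 fold change of −1.83 (SE 0.31, interval −2.48 to −1.17, edgeR adjusted p 0.00178) was −1.40 without wild-type replicate 1, with an adjusted p of 0.00496.

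MIMAT0000539 was the most significant of the microRNAs that rose and the 4th most abundant of the 255. Its level was 87509, 53102, 67022 and 47392 CPM in compound-deficient replicates 1 to 4. In wild-type replicates 1 to 4 it was 38990, 27690, 39270 and 35885 CPM. The groups did not overlap, and the compound-deficient libraries were spread more widely than the wild type, in the order of their total counts, deepest highest. In the wild type its order did not follow depth. The log2 fold change was 0.85 (SE 0.16, interval 0.51 to 1.18, edgeR adjusted p 0.00408), and in a fit that also held depth (log2 total count) it was 0.84 (edgeR adjusted p 0.000367). That fit used a common slope on depth for all groups, so it cannot take out a relation seen in the compound-deficient group alone.

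MIMAT0004324 rose from a lower level, 66th of the 255. Compound-deficient replicates 1 to 4 gave 868, 747, 1040 and 682 CPM, and wild-type replicates 1 to 4 gave 463, 418, 608 and 405 CPM. The groups did not overlap, with wild-type replicate 3 closest to the compound-deficient range. The log2 fold change was 0.82 (SE 0.18, interval 0.44 to 1.20, edgeR adjusted p 0.0112). It missed the threshold without compound-deficient replicate 3, at 0.69 with an adjusted p of 0.0550, and in a fit of the 8 compound-line libraries alone, at 0.79 with an adjusted p of 0.0548. It also missed it with the replicate number as a block (0.79, edgeR adjusted p 0.0718). With limma without a trend on the deposited log2 values it was at 0.81 (adjusted p 0.11), and that setting also left MIMAT0000539 (0.81, adjusted p 0.11) and MIMAT0000531 (−0.77, adjusted p 0.0717) outside the threshold.

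**Figure D2:**
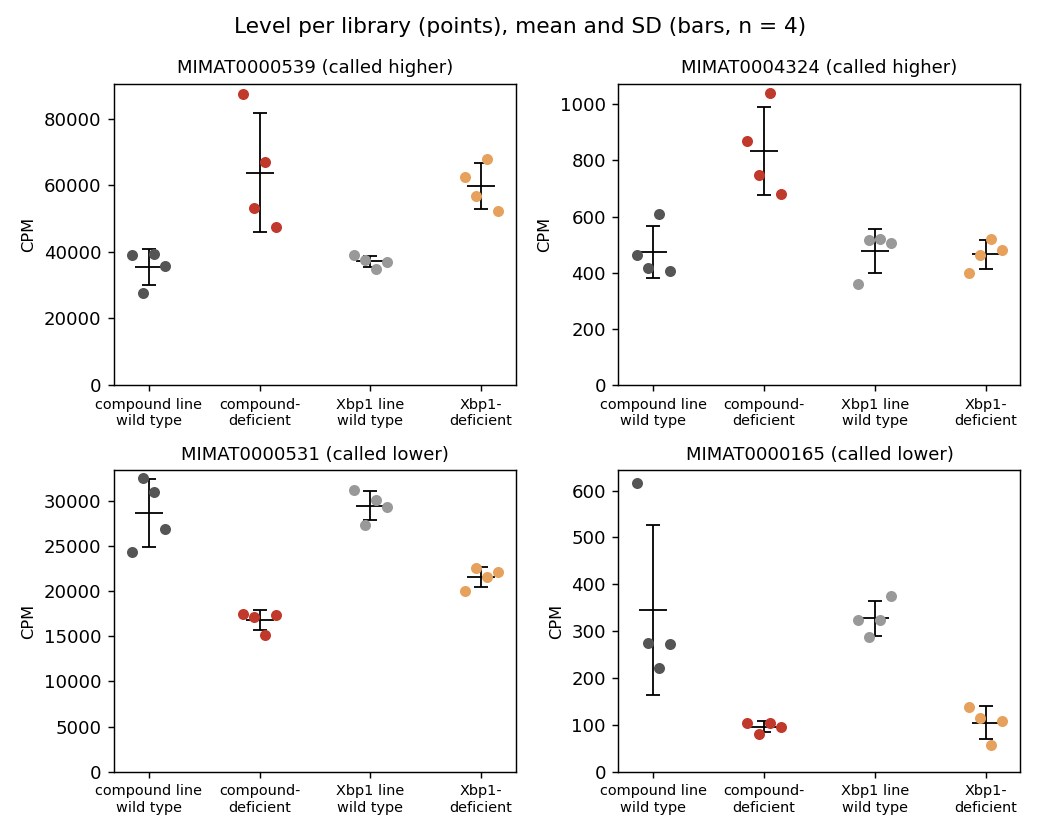
Points are single libraries, horizontal marks the mean and bars the SD (n = 4) of the level in CPM, with 1 panel for each of the 4 microRNAs and 1 column for each of the 4 groups; each y axis starts at 0. In the compound line the red points lie wholly above or wholly below the dark grey wild-type points in all 4 panels, and for MIMAT0004324 the Xbp1-deficient points lie among their own wild type.

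The 9 microRNAs that rose ranged from rank 2 to rank 142 by level, with a median of 625 CPM. While 58 of all 255 stood at 1000 CPM or more, 2 of the 9 did and 7 did not. Their median log2 fold change was 0.82, against 0.04 over all 255. Together they took 14.2% to 19.7% of the counts in the wild-type libraries and 20.4% to 25.8% in the compound-deficient ones, so the lowest compound-deficient share lay just above the highest wild-type share. Most of this share came from the microRNA at rank 2, which moved from 120118 ± 22889 to 169550 ± 18346 CPM (SD, n = 4), and from MIMAT0000539. These sums describe microRNAs picked on the same values and are no separate result. Nor is the separation of the ranges, which held for 7 of the 9.

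The 6 microRNAs that fell were mostly abundant, with ranks from 11 to 93. While 58 of all 255 stood at 1000 CPM or more, 5 of the 6 did. Their median log2 fold change was −0.78. Together they took 3.73% to 5.07% of the counts in the wild-type and 2.05% to 2.67% in the compound-deficient libraries, most of it from MIMAT0000531. This sum, too, describes microRNAs picked on the same values and is no separate result. The ranges of the groups were apart for 5 of the 6. Over all 255 microRNAs the ranges were apart for 25 (9.8%), with compound-deficient libraries above in 12 (4.71%) and below in 13 (5.1%), and 13 of the 25 were not called.

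**Figure D3:**
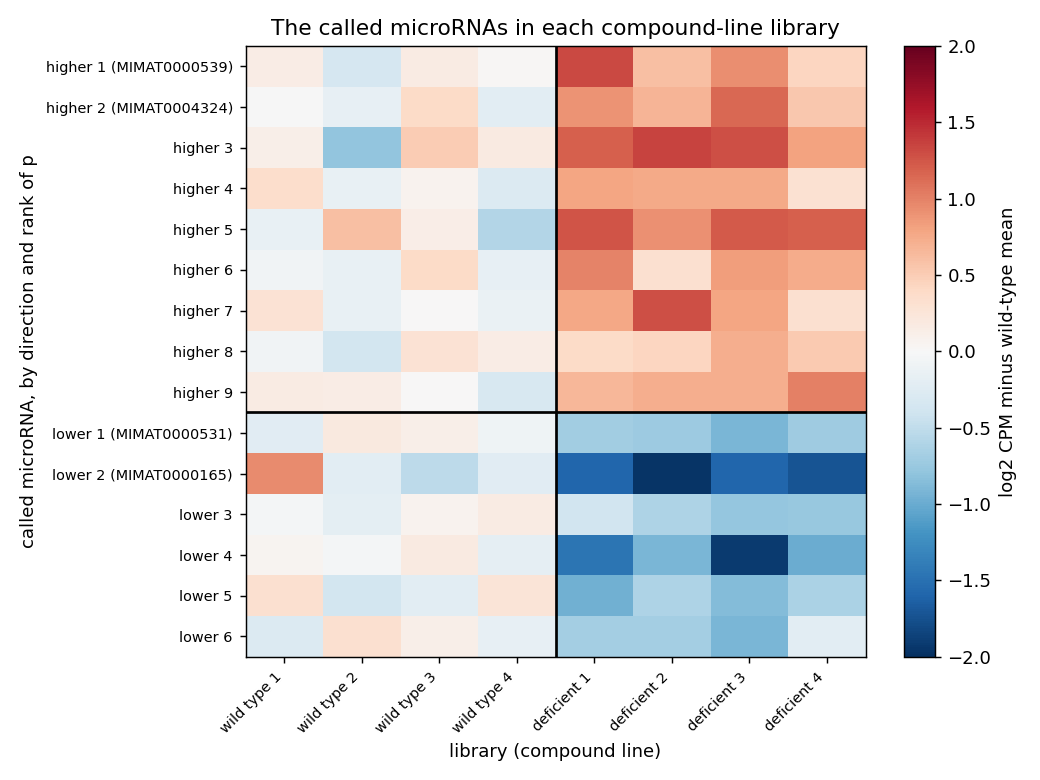
Rows are the 15 called microRNAs, by direction and rank of p, and columns the 8 compound-line libraries; colour is log2 CPM minus the wild-type mean of that microRNA, red above and blue below. The deficient side is red in the 9 upper and blue in the 6 lower rows, and wild type 1 stands out in the row of MIMAT0000165.

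Calls were concentrated among abundant microRNAs. Of the 85 with the highest levels (301.7 CPM and above), 6 were called higher and 5 lower, at a median SE of 0.16 on the log2 scale. Of the next 85 (34.5 to 291.5 CPM), 3 were called higher and 1 lower, at a median SE of 0.36. Of the lowest 85, none was called by edgeR at a median SE of 0.69, with 8 at an unadjusted p under 0.05. The median log2 fold change was 0.08, 0.00 and −0.07 in these groups. Among the 598 microRNAs too low to test, 2 had counts in all 4 wild-type libraries and none in any compound-deficient library, and none showed the opposite. Both rested on few reads, 23 and 20 counts in the 4 wild-type libraries together. A single wild-type library gave 15 of the 23 and 11 of the 20, and the lowest gave 1 in each case. In the Xbp1 line the first had counts in 4 Xbp1-deficient and 4 wild-type libraries, and the second in 1 of each.

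The threshold fell in a gap. The called microRNA with the largest adjusted p had 0.0189, and the next had 0.0535. The 8 microRNAs with an adjusted p between 0.05 and 0.1 held 2 with higher and 6 with lower mean level in compound-deficient cells, with log2 fold changes from −1.94 to 1.16. In all, 51 of the 255 had an unadjusted p under 0.05, and the 36 of these that were not called held 17 with a positive and 19 with a negative log2 fold change. The 10 most abundant microRNAs had log2 fold changes from −0.26 to 0.85, and MIMAT0000539 was the one with the largest change among them.

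The microRNAs called in the compound line were then read in the Xbp1 line, whose libraries are separate from those of the compound line. Both comparisons came from the same fit and share its estimate of spread for each microRNA. Picking on a small compound-line p thus also favours a small p in the Xbp1 line, so calls there are not a separate test. The 6 that fell all had a negative log2 fold change in Xbp1-deficient cells, from −1.65 to −0.34, and 3 of them passed there, where 6 of 255 (2.35%) passed in all. MIMAT0000165 stood at 105 ± 34.8 CPM in Xbp1-deficient and 327 ± 36.5 CPM in the wild-type libraries of that line (SD, n = 4), and MIMAT0000531 at 21579 ± 1101 and 29477 ± 1640 CPM. Their log2 fold changes there were −1.65 (interval −2.27 to −1.02) and −0.45 (interval −0.67 to −0.23). Over all 255 microRNAs, 59.6% had the same sign in both lines. The 6 together took 2.59% to 2.98% of the counts in Xbp1-deficient libraries and 3.89% to 4.37% in their wild type, ranges that were apart. Most of this share came from MIMAT0000531, so the sum largely repeats its values.

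The 9 that rose had log2 fold changes from −0.15 to 0.69 in the Xbp1 line, and 5 of them (55.6%) had the same sign there, near the 59.6% over all 255. MIMAT0000539 passed there, at 59808 ± 6808 CPM in Xbp1-deficient and 37092 ± 1754 CPM in wild-type libraries. MIMAT0004324 did not, at 466 ± 51.6 and 476 ± 77.9 CPM. Of the 9, 4 had log2 fold changes from 0.43 to 0.69 there and 5 from −0.15 to 0.05. Together the 9 took 15.4% to 17.8% of the counts in Xbp1-deficient and 15.6% to 17.5% in wild-type libraries, ranges that lay over each other. Most of this sum came from MIMAT0000539 and the microRNA at rank 2, whose means moved in opposite directions. The latter stood at 111652 ± 14201 CPM in Xbp1-deficient and 124128 ± 3069 CPM in wild-type libraries. The sum therefore does not show that the 9 stayed level.

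**Figure D4:**
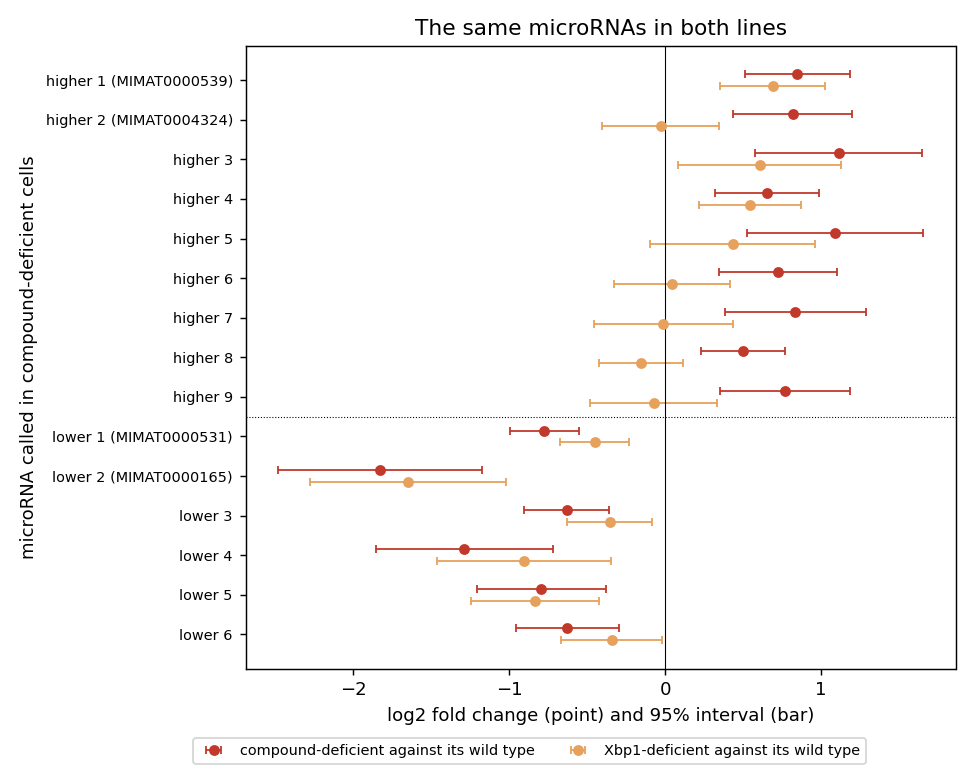
Points are log2 fold changes and bars 95% intervals of the 15 microRNAs called in compound-deficient cells, in the compound line (red) and the Xbp1 line (orange), each against the wild type of its line. All 6 lower rows have both points below 0, while 5 of the 9 upper rows have an orange point between −0.15 and 0.05.

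To ask whether a change differed between the lines, the change in one line was subtracted from that in the other within the same fit. None passed in edgeR (0 of 255, 0%); 26 had an unadjusted p under 0.05, and the smallest adjusted p was 0.208. With upper-quartile scaling edgeR called 3, and without the filter on low counts it called 2. DESeq2 called 1 and limma with voom weights 0. Of the 9 that rose, 5 had an unadjusted p under 0.05 for the difference, and these were the 5 with Xbp1-line values from −0.15 to 0.05. The called microRNAs were picked on their compound-line change, which is a term of this difference, so these unadjusted p-values are too small and support nothing by themselves. MIMAT0004324 was one, with a difference of 0.85 (SE 0.26, interval 0.31 to 1.38). For the other 4, MIMAT0000539 among them, the unadjusted p was not under 0.05, and for MIMAT0000539 the difference was 0.16 (interval −0.32 to 0.63). Of the 6 that fell, 1 had an unadjusted p under 0.05, MIMAT0000531, with a difference of −0.32 (interval −0.63 to −0.01, edgeR adjusted p 0.443). With upper-quartile scaling this difference was −0.73 and passed, at an edgeR adjusted p of 0.0454. The interval for MIMAT0000165 ran from −1.07 to 0.71, so neither a larger nor a smaller fall in the compound line can be told from these libraries.

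The set of calls rested partly on single libraries. Without compound-deficient replicate 3 there were 5 calls, 1 higher and 4 lower. Without compound-deficient replicate 2 there were 9, and without wild-type replicate 2 there were 10. Without wild-type replicate 4 there were 23, 7 higher and 16 lower. With each of the 8 libraries left out in turn, 5 of the 15 passed every time: 1 of the 9 that rose, MIMAT0000539, and 4 of the 6 that fell, MIMAT0000531 and MIMAT0000165 among them. Both the libraries fitted and the scaling moved the balance of directions. A fit of the 8 compound-line libraries alone, which took no spread from the Xbp1 line, gave 1 higher and 5 lower, all among the 15. Upper-quartile scaling lowered the log2 fold changes by a median of 0.27 and gave 3 higher and 21 lower, and total counts alone lowered them by a median of 0.12 and gave 8 higher and 11 lower. All 15 kept their sign under the 20 alternative settings run. The smallest of the 15 changes was 0.50 on the log2 scale, above both median shifts, so rescaling alone could hardly turn a sign. Only 1 of the 15, MIMAT0000165, stayed called in each of the settings.

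**Figure D5:**
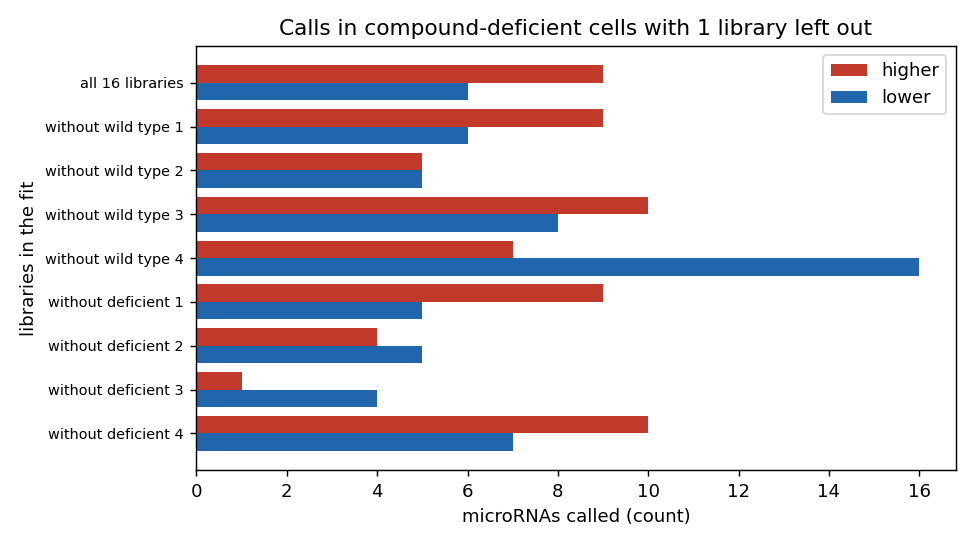
Bars are the number of microRNAs called higher (red) and lower (blue) in compound-deficient cells by edgeR, with all 16 libraries in the fit and with each library of the compound line left out. The count of higher calls is 1 without deficient 3 and 10 without deficient 4, and the count of lower calls is 16 without wild type 4.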

How the data were processed

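Per the submitters' processing notes, the builds were GRCm38 and mm10 and the tools Bowtie 1.1.2, limma 3.42.2, cutadapt 1.8.1 and FastQC 0.11.3, with no role stated. The authors deposited raw counts for 853 mature microRNAs and log2 values for 473 of them; the latter differ from log2 of the count plus 0.5 by a constant per library. How reads matching several microRNAs were counted is not stated there, so near-identical microRNAs may share reads. Groups and replicate numbers came from the sample descriptions. The main test was edgeR 4.0.16 (R 4.3.3) on the counts: filterByExpr with a count minimum of 10 (255 microRNAs, 99.87% to 99.94% of each library's counts), TMM scaling, 1 quasi-likelihood fit of 16 libraries with 4 group means, two-sided tests and Benjamini-Hochberg adjustment, called under 0.05. The common biological coefficient of variation was 31.2%. SEs were derived from the log2 fold change and F. Libraries of a group differed beyond counting noise (the smallest chi-square, per degree of freedom, was 24.8), so none was merged.

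The members, 28 name lists and tests were chosen with earlier results of these data known. The naming rule (all called, the 10 next by p, the 10 of highest level, list members) was reduced to 2 identifiers per direction, because 0 identifiers matched a name; no list was read. The fit was tested on simulated data. Alternatives included DESeq2 1.42.0 and limma 3.58.1. Same-numbered libraries of both groups were not paired by any label, and their deviations correlated between −0.26 and 0.26.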

Additional observations from a re-analysis of the deposited data

Results flagged for a closer look

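MIMAT0000531 in compound-deficient replicate 3 stood at 15152 CPM, against 17131 to 17514 CPM in the other 3 compound-deficient libraries, a gap of 0.847 of the group's range on the log2 scale, above Dixon's 95% critical value for 4 samples. It was the 1 group so marked among 16 examined (4 microRNAs and 4 library measures in 2 groups), and chance marks about 1 in 20. Without that library its log2 fold change was −0.73 and it still passed (edgeR adjusted p 0.00184).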

How the results depend on the processing

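In compound-deficient cells, 15 microRNAs were called in the main analysis. The count was 24 with upper-quartile scaling, 24 with DESeq2 and 32 with all 8 wild-type libraries as control. It was 6 (1 higher and 5 lower) in a fit of the 8 compound-line libraries alone and 4 with the replicate number as a block. Limma without a trend on the deposited log2 values gave 1. An alternative chosen after seeing the data, limma with a trend on those values, gave 16. Leaving out 1 compound-line library in turn gave 5 to 23. With the replicate block, which the check of the numbers does not back (1 of 4 compound-deficient libraries correlated best with its own number), 1 higher and 3 lower were called. For the difference of both lines' changes, 0 were called, against 3 with upper-quartile scaling, 2 without the filter and 1 with DESeq2. With any 1 compound-line library left out, 0 were called. Libraries of the Xbp1 line were not left out singly, so how the difference depends on them was not tested. The numbers of the Xbp1 line pair only 1 library with its wild type, so no paired analysis of the difference was possible. The 4 named microRNAs were picked by smallest p per direction in these same data, and the re-fits share libraries. Their tally therefore does not stand for all 15 calls, of which 1 stayed called in every setting. The changes of the 4 named microRNAs kept sign and call in 74 of 80 re-fits and lost the call in 6. Their differences between the lines passed the threshold in 1 of 68 re-fits, for MIMAT0000531 with upper-quartile scaling (−0.73, edgeR adjusted p 0.0454, against −0.32 and 0.443). They changed sign in 4 of the 68, none of these past the threshold: for MIMAT0000165 from −0.18 to 0.11 with limma voom and 0.25 without wild-type replicate 1, and for MIMAT0000539 from 0.16 to −0.23 with upper-quartile scaling and −0.034 without compound-deficient replicate 1. The cause of these moves was not tested. Over the re-fits with 1 compound-line library left out, these differences ran from −0.35 to 0.25 for MIMAT0000165 and from −0.034 to 0.28 for MIMAT0000539. Depth limits the least abundant microRNAs most.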
